A study of Mus musculus with 10 samples.

Results

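The 10 genes described here encode transcription factors that steer the fate of granulocyte-monocyte progenitors (GMPs), the bone marrow cells that give rise to neutrophils and monocytes. They were chosen by name, as regulators of granulocyte, monocyte, and early myeloid development outside the Cebp and Irf families, and they are 10 of the 51717 genes for which transcripts were summed. All 10 were among the 12381 genes that had enough reads to be tested. RNA-seq compared 5 WT samples (*ROSA26 CreER*+/-) with 5 *Mpc2* recent KO samples (*Mpc2* fl/fl; *ROSA26 CreER*+/-), to ask which genes change when GMPs lose the mitochondrial pyruvate carrier. All animals were male, of the C57Bl6/N strain, and on tamoxifen chow for the 2 wk before harvest, so that WT samples carried CreER and received the drug too. CreER is expressed from the *ROSA26* locus, which is active in nearly all cell types, and tamoxifen lets it delete the floxed exon of *Mpc2*. GMPs were sorted as CD45.2+ donor cells from mixed bone marrow chimeras, in which donor marrow and CD45.1+ WT marrow shared an irradiated host, so that WT blood cells were present in every animal. Each WT sample came from a single mouse, and each recent KO sample was a pool of a pair of mice, so each recent KO value is already an average.

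Fate choice in GMPs rests on a small network of DNA-binding proteins that promote one lineage and repress another. PU.1, encoded by *Spi1*, opens myeloid genes and at high levels favors monocytes, whereas Gfi1 represses monocyte genes and favors neutrophils. Gfi1b, a relative of Gfi1, is a repressor of erythroid cells and megakaryocytes. Runx1 binds DNA as a heterodimer with Cbfb, Myb maintains immature progenitors, Etv6 is an ETS family repressor, Klf4 and Zeb2 act in monocytes and dendritic cells, and Id2 has no DNA-binding region of its own and sequesters E proteins.

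None of the 10 factors passed the test for a difference between recent KO and WT GMPs. The quasi-likelihood test of edgeR, with p-values adjusted by Benjamini-Hochberg over all tested genes, called 0 of 10, against 41 of 12381 genes in all (0.331%), and the adjusted p-values of the 10 ran from 0.186 for *Gfi1b* to 0.844 for *Etv6*. At an unadjusted p under 0.05, 6 of the 10 were below the threshold, against 1268 of all tested genes (10.2%). Of those 6, *Spi1*, *Zeb2*, *Myb*, *Runx1*, and *Gfi1* were fitted lower in recent KO GMPs (5.35% of all tested genes were), and *Gfi1b* was fitted higher (4.89%). This count depended on the scaling, with 2 of the 10 (1 lower) by library size alone, 3 (2 lower) with upper quartile scaling or a length offset, and 2 of 9 (0 lower) with limma on log2 TPM. DESeq2 called 1 of the 10, *Gfi1b*, among 156 of 14360 genes (1.09%). The median log2 fold change of the 10 was -0.18, beside -0.00 for all genes tested, with 7 of the 10 fitted lower and 3 higher, where 50.5% of all tested genes were fitted lower. Groups overlapped for each of the 10, where 2.42% of tested genes had groups that did not.

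**Figure D1:**
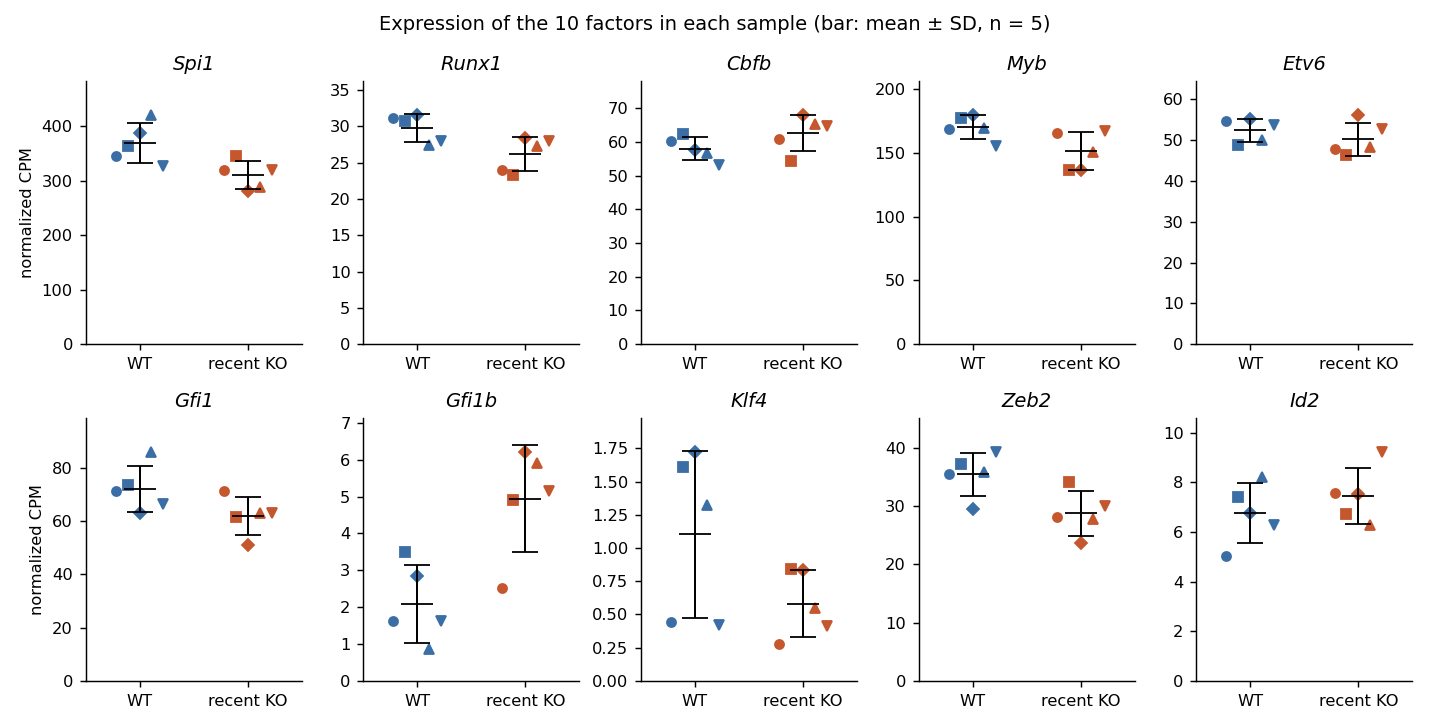
Normalized CPM (linear axes from 0) of each factor in the 5 WT samples (blue) and the 5 recent KO samples (orange), with 1 marker shape per replicate number and bars for the mean ± SD. For *Spi1*, 4 of the 5 recent KO samples sit below the lowest WT sample, and for *Gfi1b* 4 of 5 sit above the highest, while every panel has some overlap between the groups.

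The samples held 14033776 to 19745405 estimated reads, and levels are given as CPM, reads scaled to a common library size. In every sample 3 reads, the most that a count of 0 allows, corresponded to 0.152 to 0.214 CPM. *Mpc2* itself, the targeted gene, was at 60.9 to 117 CPM in WT samples and at 17.1 to 43.9 CPM in recent KO samples, so that the groups did not overlap, and it fell by 1.46 on the log2 scale (SE 0.24, adjusted p = 0.0156). Counts were simulated for the 12381 tested genes, with a change in a small random part of them, at any level of expression. Of these changed genes, the same test called 46.4% at 1.5-fold and 81.4% at 2-fold. All factors but *Gfi1b* and *Klf4* had fitted changes smaller than 1.5-fold, for which no rate was obtained. For genes at the low levels of *Gfi1b* and *Klf4*, no separate rate was obtained either. GMP markers were abundant in both groups, with *Mpo* (myeloperoxidase) at 51593 to 69038 CPM in WT samples and 31826 to 52803 CPM in recent KO samples. Their sum over 10 markers lay at 93190.0 to 131711 CPM (median 115850.0) in WT samples and 56829.5 to 94763 CPM (median 77924) in recent KO samples. *Mpo* was the largest part of this sum. Of the 10 GMP markers, 7 were fitted lower, all at an unadjusted p under 0.05, against 5.35% of all tested genes. The other 3 were fitted higher, *Kit* (log2 fold change 0.08), *Cd34* (0.25), and *Cd27* (0.22), none at an unadjusted p under 0.05. None of the 10 was called by edgeR, whereas DESeq2 called 3, *Mpo*, *Fcgr3*, and *Calr*. *Calr*, the chaperone calreticulin, was at 3083 to 4362 CPM in WT samples and 2716 to 3066 CPM in recent KO samples, with no overlap (log2 fold change -0.32, adjusted p = 0.240 by edgeR and 0.0339 by DESeq2). In RNA from whole sorted populations, fewer cells of a type and less RNA per cell cannot be told apart.

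Promoter sequences are shown for *Gfi1b* and *Gfi1*, repressors that bind a known core motif, and for *Runx1*, with transcripts that start there described further on. They are from RefSeq on GRCm38.p6, run 5′ to 3′ on the gene's strand from 250 bases before to 50 after an annotated start, and were found for 9 of the 10 factors, with 14 starts in all. *Spi1* had no entry. In the first pair, capitals mark AATC, the core that Gfi1 and Gfi1b bind, or its reverse complement GATT. The first, of *Gfi1b* (chr2:28621933-28622232, minus strand), holds 4 matches and the second, of *Gfi1* (chr5:107725756-107726055, minus strand), holds 1.
Gfi1b: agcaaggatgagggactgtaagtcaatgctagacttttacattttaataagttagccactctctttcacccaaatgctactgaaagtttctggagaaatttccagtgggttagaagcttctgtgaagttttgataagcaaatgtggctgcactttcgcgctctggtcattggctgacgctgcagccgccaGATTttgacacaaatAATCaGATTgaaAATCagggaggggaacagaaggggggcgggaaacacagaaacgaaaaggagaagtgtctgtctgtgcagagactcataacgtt
Gfi1: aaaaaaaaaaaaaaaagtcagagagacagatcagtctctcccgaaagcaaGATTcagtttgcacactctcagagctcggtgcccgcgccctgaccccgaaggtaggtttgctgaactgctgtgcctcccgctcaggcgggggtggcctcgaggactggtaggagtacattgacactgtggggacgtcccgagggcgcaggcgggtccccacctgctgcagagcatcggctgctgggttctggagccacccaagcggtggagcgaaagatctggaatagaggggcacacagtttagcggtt
The 4 matches of *Gfi1b* lie close together, at positions -60, -45, -40, and -33 with the annotated start as 0, and both letter orders occur. At least 4 matches on either strand were present in 3319 of 32851 promoter windows of this length (10.1%), and at least 1 in 73.1%. Of the other factors, *Zeb2* had a start with 4 matches, and a further start of *Gfi1*, not shown, and the windows of *Klf4* and *Cbfb* had none. A match of so few letters is a description of the window and not a binding site.

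*Runx1* has a distal and a proximal promoter, which give proteins with different amino termini. Here capitals mark TGTGGT, the Runx consensus, or its reverse complement ACCACA. The distal window is chr16:92826025-92826324 and the proximal window is chr16:92697280-92697579, both on the minus strand.
Runx1 distal: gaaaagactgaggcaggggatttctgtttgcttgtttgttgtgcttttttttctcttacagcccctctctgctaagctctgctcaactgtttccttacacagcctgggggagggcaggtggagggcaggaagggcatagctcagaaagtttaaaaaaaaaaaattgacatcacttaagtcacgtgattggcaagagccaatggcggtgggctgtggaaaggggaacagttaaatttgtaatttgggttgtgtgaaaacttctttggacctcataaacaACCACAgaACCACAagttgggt
Runx1 proximal: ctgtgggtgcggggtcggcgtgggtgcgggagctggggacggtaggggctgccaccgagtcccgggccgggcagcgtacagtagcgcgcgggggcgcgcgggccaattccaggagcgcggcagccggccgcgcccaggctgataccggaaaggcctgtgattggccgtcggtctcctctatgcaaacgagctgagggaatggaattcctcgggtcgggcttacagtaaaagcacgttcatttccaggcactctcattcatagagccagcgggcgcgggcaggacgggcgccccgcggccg
The distal window holds 2 matches, at positions 28 and 36 after the start, and the proximal window holds none. Of all windows, 16.8% held at least 1 match on either strand and 1.81% held at least 2. The other factors with an entry had no match of these letters in their windows.

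Per transcript length, the factors spanned a wide range of levels in WT GMPs. *Spi1* led at 206 ± 11.6 TPM, a length-scaled level that adds up to the same total in each sample (SD, n = 5), followed by *Myb* at 43.9 ± 2.66 TPM and *Gfi1* at 28.9 ± 3.10 TPM. The middle of the order was taken by *Cbfb* at 17.1 ± 1.55 TPM, *Zeb2* at 12.5 ± 2.09 TPM, *Runx1* at 8.44 ± 1.29 TPM, and *Etv6* at 8.29 ± 1.16 TPM. At the low end were *Id2* at 5.05 ± 0.711 TPM, *Gfi1b* at 1.39 ± 0.960 TPM, and *Klf4* at 0.298 ± 0.163 TPM. The steps from *Spi1* to *Myb*, from *Myb* to *Gfi1*, and from *Gfi1* to *Cbfb* held in all 10 samples, as did those from *Etv6* down to *Klf4*. *Runx1* and *Etv6* could not be ordered, since *Runx1* was the higher in 3 of 5 WT samples and 4 of 5 recent KO samples. *Zeb2* exceeded *Runx1* in every WT sample and in 3 of 5 recent KO samples, and was below *Cbfb* in every sample but 1, a recent KO sample.

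**Figure D2:**
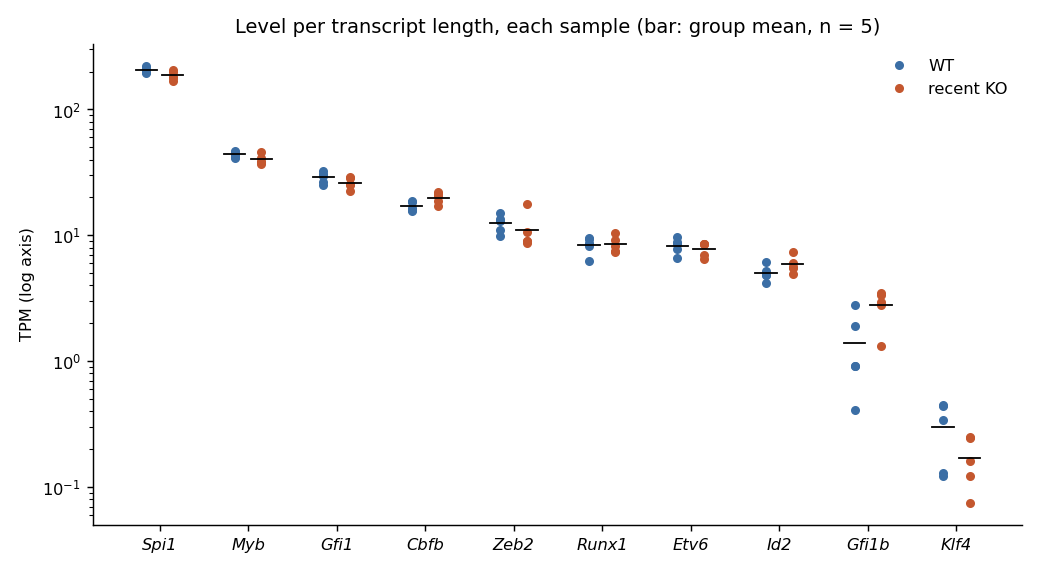
TPM on a log axis for each factor, ordered by its WT mean, with WT samples in blue, recent KO samples in orange, and a bar at each group mean. The order of the factors is nearly the same in both groups, and only *Cbfb*, *Zeb2*, *Runx1*, and *Etv6* trade places with a neighbor in some samples.

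*Spi1* (chr2:91082390-91115756, plus strand) was the most abundant factor. WT samples held 345, 364, 388, 419.8, and 327 CPM of *Spi1*, and recent KO samples held 319, 345, 280.2, 288, and 319.6 CPM. All 5 recent KO samples were below the WT mean and 4 were below every WT sample, with the remaining 1, replicate 2, inside the WT range. The means were 369 ± 36.6 CPM in WT GMPs and 311 ± 26.3 CPM in recent KO GMPs (SD, n = 5 each), and the fitted ratio was 0.843 (95% interval 0.749 to 0.947). This did not pass (log2 fold change -0.25 ± 0.08 (SE), adjusted p = 0.270, unadjusted p = 0.00741 by edgeR), and the adjusted p stayed between 0.122 and 0.588 in every setting tried.

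PU.1 targets, genes of myeloid receptors and host defense that PU.1 is known to bind, were mostly fitted lower as well, and none passed the test of edgeR. Of 12 tested targets, 10 were fitted lower and 2 higher, with a median log2 fold change of -0.21, where 50.5% of all tested genes were lower. At an unadjusted p under 0.05, 4 targets were lower and 1 higher, against 5.35% and 4.89% of all tested genes. This list and the others were chosen with earlier results of these data known. *Fcgr3*, which encodes the Fc receptor CD16 and is part of the gate by which GMPs were sorted, was at 425, 387, 395, 456, and 357 CPM in WT samples and 318, 284, 153, 267, and 268 CPM in recent KO samples. Every recent KO sample was below every WT sample (log2 fold change -0.65, adjusted p = 0.107 by edgeR), and DESeq2 called it (adjusted p = 0.00250). *Csf1r*, the receptor for macrophage colony-stimulating factor, was at 21.4, 23.4, 23.3, 27.5, and 22.9 CPM in WT samples and 17.3, 23.6, 11.7, 17.8, and 18.8 CPM in recent KO samples. All but replicate 2 of the recent KO samples lay below the WT range (log2 fold change -0.41, adjusted p = 0.330 by edgeR). *Spic*, an ETS factor close to PU.1 that is used by iron-recycling macrophages, was at 0.832, 1.16, 0.950, 0.544, and 1.32 CPM in WT samples and 1.55, 2.31, 2.83, 2.13, and 2.27 CPM in recent KO samples. Its groups did not overlap (log2 fold change 1.19, adjusted p = 0.103 by edgeR, called by DESeq2 with adjusted p = 0.0149). The 19 relatives of the factors, *Spic* included, gave no call by edgeR among the 16 tested. At an unadjusted p under 0.05, 2 relatives were higher and 1 lower, against 4.89% and 5.35% of all tested genes. The lower 1 was *Klf6*, a Kruppel-like activator, at 14.9, 12.6, 14.5, 20.4, and 14.3 CPM in WT samples and 8.93, 12.5, 12.6, 13, and 12.2 CPM in recent KO samples (log2 fold change -0.37, adjusted p = 0.366 by edgeR).

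*Gfi1* (chr5:107716657-107726036, minus strand) is the granulocytic repressor of the set. WT samples held 71.3, 73.4, 63.1, 85.9, and 66.5 CPM of *Gfi1*, and recent KO samples held 71.2, 61.3, 51.2, 63.0, and 63.1 CPM. Replicate 1 of the recent KO samples was well inside the WT range, replicate 5 was at the level of the lowest WT sample, and replicates 2, 3, and 4 were below it, replicate 3 by the most. The means were 72.0 ± 8.75 CPM in WT GMPs and 62.0 ± 7.16 CPM in recent KO GMPs (SD, n = 5 each). The test gave a log2 fold change of -0.22 ± 0.10 (SE), adjusted p = 0.459, unadjusted p = 0.0417 by edgeR. A noncoding gene on the other strand, *A430072P03Rik*, overlaps *Gfi1* and held 1.70 to 3.66 CPM, and the library kit does not mark strand. Genes that overlap the other factors were lower still, at no more than 1.83 CPM for *Zeb2os* on the other strand of *Zeb2* and no more than 2.42 CPM for any inside *Etv6*.

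The balance of PU.1 against Gfi1 sets monocyte against neutrophil fate, and only the RNA of *Spi1* and *Gfi1* was measured here. On average, their RNA ratio was close to equal in the groups. The ratio of *Spi1* to *Gfi1* in TPM was 6.44, 6.84, 8.45, 6.79, and 7.37 in WT samples and 7.29, 8.16, 7.41, 6.24, and 6.81 in recent KO samples. The groups covered the same span, the mean log2 ratio differed by 0.00, and the exact two-sided permutation test gave p = 0.976 (adjusted p = 0.976 over 5 ratios).

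*Gfi1b* (chr2:28609450-28621982, minus strand), the erythroid and megakaryocytic counterpart of *Gfi1*, had the largest fitted difference of the 10 and was present at low levels. WT samples held 1.62, 3.49, 2.85, 0.855, and 1.62 CPM of *Gfi1b*, and recent KO samples held 2.53, 4.90, 6.21, 5.91, and 5.15 CPM. Replicate 1 of the recent KO samples was within the WT range, and the other 4 were above all WT samples. These values rested on 11 to 127 reads a sample. The means were 2.09 ± 1.06 CPM in WT GMPs and 4.94 ± 1.45 CPM in recent KO GMPs (SD, n = 5 each), and the fitted ratio was 2.35 (95% interval 1.45 to 3.81). By edgeR this did not pass (log2 fold change 1.23 ± 0.33 (SE), adjusted p = 0.186, unadjusted p = 0.00210). DESeq2 called it (adjusted p = 0.0178), as did edgeR without a filter on low counts (adjusted p = 0.00701, among 0.738% of 27909 genes), and the other settings gave adjusted p-values up to 0.501. With an offset for the length of the transcripts in use, the log2 fold change was 0.95 in place of 1.23.

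Erythroid and megakaryocyte markers were fitted higher in recent KO GMPs. This held for 8 of 8 markers, 5 of them at an unadjusted p under 0.05, against 4.89% of all tested genes. None of these markers was called by edgeR, whereas DESeq2 called 1, *Pf4*. Their summed level was 20.1, 40.2, 40.0, 21.1, and 26.8 CPM in WT samples and 35.4, 34.8, 119.9, 107, and 84.2 CPM in recent KO samples, so that replicates 3, 4, and 5 of the recent KO samples were the 3 highest both here and for *Gfi1b*. Recent KO replicate 2, with a sum inside the WT range, held 4.90 CPM of *Gfi1b*, above all WT samples. *Pf4*, the platelet chemokine CXCL4, was at 0.930, 4.49, 4.27, 2.64, and 4.31 CPM in WT samples and 9.56, 5.38, 8.41, 11.5, and 8.40 CPM in recent KO samples (log2 fold change 1.38, adjusted p = 0.122 by edgeR and 0.00225 by DESeq2). Among defining genes, the erythroid factor *Klf1* had no reads in 3 of the 10 samples and was at most 3.09 CPM, and *Gata1* was at 1.79 to 12.7 CPM. The alpha globin gene *Hba-a1*, which has a near-identical copy, was at 1.13 to 11.5 CPM in WT samples and 6.26 to 59.2 CPM in recent KO samples. The beta globin gene *Hbb-bt*, which also has a close copy, was at 0.881 to 6.29 CPM in WT samples and 4.85 to 24.1 CPM in recent KO samples (log2 fold change 1.95, adjusted p = 0.176 by edgeR). *Itga2b*, the megakaryocyte integrin CD41, was at 4.12 to 9.99 CPM in WT samples and 9.28 to 13.7 CPM in recent KO samples (log2 fold change 0.50, adjusted p = 0.395 by edgeR). The part of such cells in the *Gfi1b* values was not tested.

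**Figure D3:**
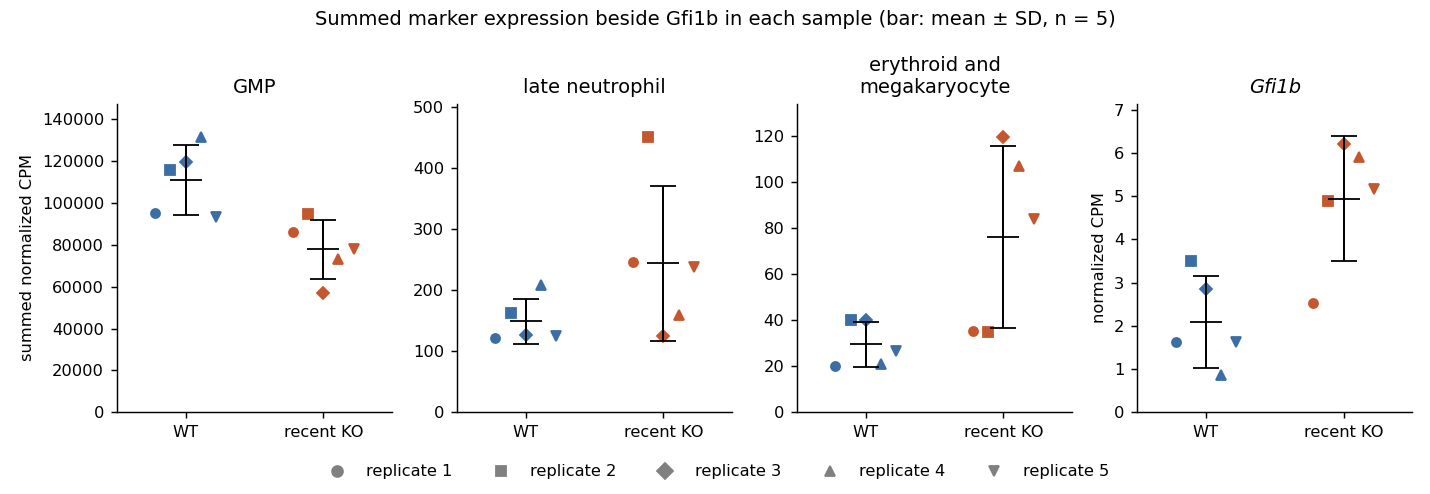
Summed CPM of GMP, late neutrophil, and erythroid and megakaryocyte markers beside the CPM of *Gfi1b* (linear axes from 0), with 1 marker shape per replicate number and bars for the mean ± SD of the 5 WT (blue) and 5 recent KO (orange) samples. Recent KO replicates 3, 4, and 5 have the highest erythroid and megakaryocyte sums (84.2 to 119.9 CPM) and the highest *Gfi1b* values, whereas replicate 2 has the highest late neutrophil sum. Recent KO replicate 2 has *Gfi1b* above all WT samples (4.90 CPM) with an erythroid and megakaryocyte sum inside the WT range (34.8 CPM).

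The ratio of *Gfi1* to *Gfi1b* in TPM was 33.2, 15.6, 8.97, 80.3, and 28.9 in WT samples and 19.1, 9.13, 6.55, 8.46, and 9.89 in recent KO samples. All recent KO ratios but that of replicate 1 lay between 6.55 and 9.89, near the lowest WT ratio of 8.97, and the WT ratios spread most. The ratio of 8.97 was that of WT replicate 3, where coding transcripts made up only 47.5% of the *Gfi1b* TPM, the lowest share of all samples. The difference in the mean log2 ratio, -1.37, did not pass (exact permutation p = 0.0635, adjusted p = 0.304), where 5 samples against 5 allow no p below 0.00794. With CPM in place of TPM, the difference was -1.56 and did not pass either (exact permutation, adjusted p = 0.0595).

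Genes that Gfi1 and Gfi1b are known to repress, the factors themselves aside, were mostly fitted higher, without a call by edgeR or DESeq2. Of 8 tested targets, 7 were fitted higher and 1 lower, with a median log2 fold change of 0.16. At an unadjusted p under 0.05, 2 targets were higher, against 4.89% of all tested genes. *Meis1*, a homeobox factor of stem and progenitor cells, was at 14.2, 12.3, 13.7, 10.8, and 12.7 CPM in WT samples and 12.7, 13.3, 22.0, 18.9, and 16.7 CPM in recent KO samples. Again replicates 3, 4, and 5 of the recent KO samples were the highest (log2 fold change 0.39, adjusted p = 0.364 by edgeR). Stem cell markers, of which *Meis1* is 1, summed to 28.9, 28.2, 26.9, 26.0, and 23.0 CPM in WT samples and 26.3, 25.0, 47.5, 36.7, and 34.1 CPM in recent KO samples. Of these markers, 5 of 5 tested were fitted higher, without a call by edgeR or DESeq2. At an unadjusted p under 0.05, 2 were higher, against 4.89% of all tested genes. *Hlf*, a stem cell factor, was at 3.35 to 5.19 CPM in WT samples and 4.34 to 8.89 CPM in recent KO samples (log2 fold change 0.56, adjusted p = 0.358 by edgeR), and *Slamf1* (CD150) was at 4.97 to 9.25 CPM and 4.27 to 9.14 CPM. The part of stem cells in these values was not tested.

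*Klf4* and *Zeb2*, both regulators of monocytes, had the lowest fitted ratios of recent KO to WT among the 10. *Klf4* (chr4:55527143-55532466, minus strand) was near the limit of detection, with 4 to 29 reads a sample. WT samples held 0.441, 1.61, 1.72, 1.32, and 0.419 CPM of *Klf4*, and recent KO samples held 0.281, 0.839, 0.831, 0.548, and 0.412 CPM. The WT samples fell into 3 higher and 2 lower values, and the lower ones were within the recent KO range. The means were 1.1 ± 0.631 CPM in WT GMPs and 0.582 ± 0.249 CPM in recent KO GMPs (SD, n = 5 each), and the fitted ratio of 0.539 (95% interval 0.269 to 1.08) covers both a large decrease and none (log2 fold change -0.89 ± 0.46 (SE), adjusted p = 0.540 by edgeR).

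The ratio of *Klf4* to *Gfi1* in TPM lay between 0.00425 and 0.0178 in WT GMPs and between 0.00299 and 0.0109 in recent KO GMPs, and the difference in the mean log2 ratio, -0.57, did not pass (exact permutation p = 0.294, adjusted p = 0.367).

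*Zeb2* (chr2:44983632-45117395, minus strand) encodes a zinc finger repressor needed for monocytes and plasmacytoid dendritic cells. WT samples held 35.6, 37.2, 29.4, 35.8, and 39.3 CPM of *Zeb2*, and recent KO samples held 28.1, 34.1, 23.7, 27.7, and 30.1 CPM. All recent KO samples were below the WT mean and 3 were below every WT sample. The means were 35.5 ± 3.66 CPM in WT GMPs and 28.8 ± 3.8 CPM in recent KO GMPs (SD, n = 5 each), with a fitted ratio of 0.810 (95% interval 0.697 to 0.942). This did not pass (log2 fold change -0.30 ± 0.10 (SE), adjusted p = 0.298, unadjusted p = 0.00964 by edgeR).

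The wider monocyte and dendritic programme had a median log2 fold change of -0.55 over 7 tested genes besides the factors. Of these, 6 were fitted lower and 1 higher, with no call by edgeR. At an unadjusted p under 0.05, 4 were lower, against 5.35% of all tested genes. *Cx3cr1*, the fractalkine receptor of monocytes, was at 5.34, 6.21, 6.17, 3.50, and 6.59 CPM in WT samples and 3.30, 3.43, 3.18, 3.77, and 3.56 CPM in recent KO samples. Only replicate 4 of the WT samples lay in the recent KO range (log2 fold change -0.69, adjusted p = 0.155 by edgeR). Without that WT sample *Cx3cr1* was called (log2 fold change -0.82, adjusted p = 0.0342), and DESeq2 called it with all samples (adjusted p = 0.0385).

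Markers of mature monocytes and macrophages did not move as 1 group. Their sum over 9 markers was 511 to 612 CPM (median 565) in WT samples and 369 to 729 CPM (median 445) in recent KO samples, and of the 9 tested, 5 were fitted lower and 4 higher. The most abundant were *F13a1* (coagulation factor XIII), at 232 to 313 CPM in WT samples and 147 to 434 CPM in recent KO samples, and *Ms4a6c*, at 145 to 187 CPM and 92.6 to 147 CPM (log2 fold change -0.34, adjusted p = 0.291 by edgeR). The genes of complement C1q, which tissue macrophages make in quantity, were called higher by edgeR: *C1qa* (log2 fold change 1.25, adjusted p = 0.0406), *C1qb* (1.35, adjusted p = 0.0160), and *C1qc* (1.59, adjusted p = 0.0383). With a length offset or limma on log2 TPM, only *C1qb* was called. None of them was called with the replicate number as a block, without WT replicate 2, 3, or 4, or without recent KO replicate 3. Without WT replicate 1 or recent KO replicate 1 or 4, only *C1qb* was called. *C1qb* was at 2.69, 3.38, 3.38, 3.89, and 6.71 CPM in WT samples and 11.3, 12.5, 11.1, 8.22, and 8.14 CPM in recent KO samples, with no overlap. Late neutrophil markers were fitted higher for 7 of 8, with none called by edgeR or DESeq2. Of these, 5 were higher at an unadjusted p under 0.05, against 4.89% of all tested genes. Sums of these markers were 121, 163, 127, 208, and 125 CPM in WT samples and 247, 452, 124, 159.8, and 238 CPM in recent KO samples. Their defining granule gene *Ltf* (lactoferrin) was at 1.09 to 5.49 CPM in WT samples and 1.76 to 29.5 CPM in recent KO samples. *Retnlg*, a resistin-like gene, was at 2.18 to 7.27 CPM in WT samples and 3.65 to 20.7 CPM in recent KO samples (log2 fold change 1.53, adjusted p = 0.246 by edgeR). *Ngp*, a granule protein gene, was at 10.7 to 37.7 CPM and 7.62 to 155 CPM, and *Lcn2* (lipocalin) was at 73.7 to 180.2 CPM and 83.3 to 190.5 CPM. The groups overlapped for each of these late neutrophil genes. Basophil, mast cell, and eosinophil markers summed to 163 to 499.6 CPM (median 248) in WT samples and 205 to 371 CPM (median 336) in recent KO samples, with no call by edgeR. At an unadjusted p under 0.05, 3 of 7 were lower and 1 higher, against 5.35% and 4.89% of all tested genes. The higher 1, *Mcpt8*, a basophil protease, was at 117 to 166 CPM in WT samples and 141 to 238 CPM in recent KO samples (log2 fold change 0.53, adjusted p = 0.112 by edgeR), and DESeq2 called it (adjusted p = 0.00419). *Epx*, eosinophil peroxidase, was at 0.898 to 10.9 CPM and 0.280 to 2.44 CPM (log2 fold change -1.72, adjusted p = 0.387 by edgeR), and *Cpa3*, a mast cell protease, was at 24.4 to 83.9 CPM and 34.1 to 107.6 CPM. Of the lymphoid markers, the B cell factor *Pax5* was at no more than 0.180 CPM and had no reads in 7 of 10 samples, while *Nkg7*, a granule gene that GMPs also express, was at 1629 to 2629 CPM. *Gzmb*, a granzyme of killer lymphocytes, was at 0.599 to 4.83 CPM in WT samples and 0.211 to 4.69 CPM in recent KO samples (log2 fold change -0.36, adjusted p = 0.889 by edgeR). The part of other cell types in the values of *Spi1*, *Gfi1*, *Klf4*, and *Zeb2* was not tested.

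*Id2* (chr12:25093799-25097140, minus strand) encodes a helix-loop-helix inhibitor that ties up E proteins and is used in dendritic and innate lymphoid cells. WT samples held 5.04, 7.43, 6.77, 8.24, and 6.29 CPM of *Id2*, and recent KO samples held 7.59, 6.71, 7.53, 6.27, and 9.23 CPM. Only replicate 5 of the recent KO samples was above the WT range. The means were 6.75 ± 1.21 CPM in WT GMPs and 7.47 ± 1.13 CPM in recent KO GMPs (SD, n = 5 each), with a fitted ratio of 1.11 (95% interval 0.888 to 1.39). The test gave a log2 fold change of 0.15 ± 0.15 (SE), adjusted p = 0.811 by edgeR. The E protein genes and corepressors with which the factors work were close to level, with a median log2 fold change of 0.01 over 18 genes and none at an unadjusted p under 0.05. *Tle3*, a Groucho corepressor of Runx proteins, had the smallest p of the 18 (log2 fold change -0.26, adjusted p = 0.567 by edgeR), followed by *Ncor1*, a nuclear receptor corepressor (log2 fold change -0.12, adjusted p = 0.601 by edgeR). The ratio of *Zeb2* to *Id2* in TPM was 3.18, 2.50, 3.15, 1.59, and 2.27 in WT samples and 1.59, 3.19, 1.76, 1.82, and 1.23 in recent KO samples. The groups overlapped through WT replicate 4, at 1.59, and recent KO replicate 2, at 3.19. The other recent KO ratios, 1.23 to 1.82, lay below the other WT ratios, 2.27 to 3.18. The difference in the mean log2 ratio, -0.44, did not pass (exact permutation p = 0.183, adjusted p = 0.304).

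Called genes lay near *Id2* on chromosome 12 and near none of the other 9 factors. Of 23 tested genes that start within 5 Mb of *Id2*, 3 were called, and of those within 5 Mb of each other factor, 0 of 7 to 161 were called. *Rps7* (chr12:28630854-28635953), a ribosomal protein gene, fell by 1.21 on the log2 scale (adjusted p = 6.60e-05). *Adi1* (chr12:28675231-28682175), of methionine salvage, rose by 0.61 (adjusted p = 1.74e-04), and *Trappc12* (chr12:28690628-28750472), of vesicle transport, fell by 0.52 (adjusted p = 0.0127). All 3 start 3.54 to 3.60 Mb from the start of *Id2*, and *Id2* itself did not pass.

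The core binding factor pair differed in direction. *Runx1* (chr16:92601466-92826149, minus strand), the DNA-binding subunit, was at 31.1, 30.7, 31.5, 27.4, and 28.0 CPM in WT samples and 24.0, 23.4, 28.3, 27.3, and 27.9 CPM in recent KO samples. All 5 recent KO samples were below the WT mean, and replicates 1 and 2 were the lowest. The means were 29.8 ± 1.91 CPM in WT GMPs and 26.2 ± 2.34 CPM in recent KO GMPs (SD, n = 5 each). The test gave a log2 fold change of -0.18 ± 0.08 (SE), adjusted p = 0.446, unadjusted p = 0.0366 by edgeR. This direction depended on the unit, since limma on log2 TPM gave a log2 fold change of 0.02.

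*Cbfb* (chr8:105170674-105217989, plus strand), which stabilizes Runx proteins on DNA, was at 60.3, 62.3, 57.7, 56.7, and 53.2 CPM in WT samples and 61.0, 54.3, 67.9, 65.4, and 64.8 CPM in recent KO samples. Replicates 3, 4, and 5 of the recent KO samples were above all WT samples, and replicate 2 was near the lowest WT sample. The means were 58.0 ± 3.49 CPM in WT GMPs and 62.7 ± 5.32 CPM in recent KO GMPs (SD, n = 5 each). The test gave a log2 fold change of 0.11 ± 0.07 (SE), adjusted p = 0.653 by edgeR. The ratio of *Runx1* to *Cbfb* in TPM was 0.462, 0.505, 0.522, 0.407, and 0.573 in WT samples and 0.403, 0.478, 0.342, 0.477, and 0.446 in recent KO samples (exact permutation p = 0.151, adjusted p = 0.304). With CPM in place of TPM, the difference in the mean log2 ratio was -0.30 in place of -0.20 and passed (exact permutation, adjusted p = 0.0397).

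*Myb* (chr10:21124935-21160984, minus strand), which keeps progenitors immature and cycling, was at 168, 178, 179.5, 169.7, and 156 CPM in WT samples and 166, 137, 137, 151, and 168 CPM in recent KO samples. Replicates 2, 3, and 4 of the recent KO samples were below all WT samples, and replicates 1 and 5 were within the WT range. The means were 170.2 ± 9.37 CPM in WT GMPs and 151 ± 15.1 CPM in recent KO GMPs (SD, n = 5 each), with a fitted ratio of 0.890 (95% interval 0.80 to 0.989). The test gave a log2 fold change of -0.17 ± 0.07 (SE), adjusted p = 0.430, unadjusted p = 0.0335 by edgeR.

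Known targets of the core binding factor and of Myb were fitted in both directions, with no call by edgeR. Of 11 tested targets besides *Spi1*, 5 were fitted lower, all of them at an unadjusted p under 0.05, and 6 were fitted higher, 2 of them at an unadjusted p under 0.05. Over all tested genes, 5.35% were lower and 4.89% higher at that threshold. The 5 lower ones were *Csf1r* and the primary granule genes *Mpo*, *Elane*, *Prtn3*, and *Ctsg*, where the granule genes are also GMP markers. The 6 higher ones were *Kit*, *Cd34*, *Bcl2*, *Cdk6*, *Myc*, and *Gata2*, of which *Myc* (log2 fold change 0.20, adjusted p = 0.329 by edgeR) and *Gata2* (log2 fold change 0.83, adjusted p = 0.325 by edgeR) were those at an unadjusted p under 0.05. *Mpo* was at 54686, 64461, 65249.9, 69038, and 51593 CPM in WT samples and 41979.7, 52803, 31826, 40870.5, and 44555 CPM in recent KO samples, where only replicate 2 of the recent KO samples was within the WT range (log2 fold change -0.52, adjusted p = 0.272 by edgeR). DESeq2 called *Mpo* (adjusted p = 0.00245) and no other of the 11. *Elane*, neutrophil elastase, was at 18841, 26121, 28564, 29692, and 20012 CPM in WT samples and 20979, 21138, 8375, 14164, and 14762 CPM in recent KO samples. Replicates 1 and 2 of the recent KO samples were within the WT range for *Elane* (log2 fold change -0.63, adjusted p = 0.360 by edgeR).

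*Etv6* (chr6:134035700-134270158, plus strand), an ETS repressor needed to maintain adult stem cells, was at 54.7, 48.9, 55.1, 49.97, and 53.6 CPM in WT samples and 47.7, 46.3, 56.1, 48.5, and 52.7 CPM in recent KO samples. Replicates 1, 2, and 4 of the recent KO samples were below all WT samples, and replicate 3 was above all of them. The means were 52.5 ± 2.84 CPM in WT GMPs and 50.3 ± 4.05 CPM in recent KO GMPs (SD, n = 5 each), with a fitted ratio of 0.959 (95% interval 0.863 to 1.07). The test gave a log2 fold change of -0.06 ± 0.07 (SE), adjusted p = 0.844 by edgeR.

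**Figure D4:**
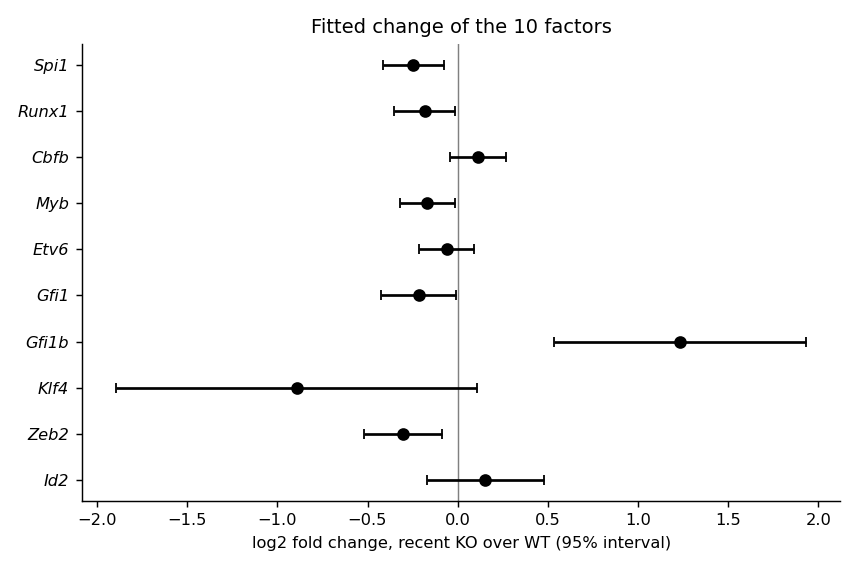
Fitted log2 ratio of recent KO to WT expression for each factor (point) with its 95% interval (bar) by edgeR, where the line at 0 marks equal expression. Intervals of *Spi1*, *Runx1*, *Myb*, *Gfi1*, and *Zeb2* lie below 0 and that of *Gfi1b* lies above 0 before adjustment over all genes, and those of *Gfi1b* and *Klf4*, the least abundant factors, are the widest.

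The transcripts that make up each factor were compared as shares of the factor's TPM. None of 20 transcripts of 9 factors passed the limma test on log odds with Benjamini-Hochberg adjustment, against 4 of 18229 transcripts in all (0.0219%), and the smallest adjusted p was 0.876. At an unadjusted p under 0.05 there were 2 of the 20, against 5.59% of all transcripts compared. *Myb-202*, a transcript annotated with a retained intron, took 19.6, 11.5, 17.0, 14.8, and 12.9% of *Myb* in WT samples and 4.49, 9.83, 11.6, 9.78, and 13.4% in recent KO samples. Replicate 1 of the recent KO samples was the lowest and the groups overlapped (adjusted p = 0.876 by limma). The coding transcripts *Myb-201* and *Myb-203* took 25.0% ± 4.30 and 51.8% ± 3.57 of *Myb* in WT samples and 29.8% ± 6.86 and 53.5% ± 9.99 in recent KO samples (SD, n = 5 each). *Id2-201* took 96.4, 76.6, 92.9, 90.4, and 86.7% of *Id2* in WT samples and 72.6, 87.4, 73.7, 79.1, and 79.4% in recent KO samples, with overlap as well (adjusted p = 0.876 by limma).

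No transcript share of *Runx1* passed the test, and the use of its distal promoter against its proximal promoter was not tested as such. *Runx1-201*, which starts inside the distal window shown above, took 26.5% ± 3.38 in WT samples and 24.1% ± 6.46 in recent KO samples (SD, n = 5 each, adjusted p = 0.952 by limma). *Runx1-202*, which starts inside the proximal window, took 11.8, 9.91, 8.14, 16.8, and 11.7% in WT samples and 8.49, 9.52, 9.69, 9.39, and 9.37% in recent KO samples. The WT shares spread more than the recent KO shares, and they overlapped (adjusted p = 0.898 by limma). *Runx1-203* took 31.9% ± 3.71 and 33.9% ± 4.94, and *Runx1-204* took 23.4% ± 8.63 and 27.1% ± 9.25, in WT and recent KO samples (SD, n = 5 each). Both start outside the windows shown above and were not assigned to a promoter.

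*Spi1-201* was the main transcript of *Spi1*, with 74.6% ± 3.12 in WT samples and 72.1% ± 3.00 in recent KO samples (SD, n = 5 each). *Spi1-204*, whose annotated start (chromosome 2, base 91082390) is upstream of that of *Spi1-201* (base 91096096), took 11.9% ± 3.92 and 15.2% ± 2.70 (adjusted p = 0.895 by limma). *Gfi1b-201* had a mean of 0.825 TPM in WT samples and 1.91 TPM in recent KO samples, and *Gfi1b-204* had 0.269 and 0.862 TPM. Neither share of *Gfi1b* passed the test (adjusted p = 0.931 and 0.994 by limma).

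Some shares could not be read. *Gfi1-202* and *Gfi1-203*, which share an annotated start and differ little in sequence span, exchanged their reads between samples. *Gfi1-202* took no more than 6.51e-06% of *Gfi1* in 7 of 10 samples and 36.5%, 72.1%, and 41.5% of *Gfi1* in the other 3, WT replicate 2 and recent KO replicates 2 and 5. *Gfi1-204* took 24.5% ± 4.28 in WT samples and 24.5% ± 7.10 in recent KO samples (SD, n = 5 each). *Zeb2-226*, annotated with a retained intron, took 38.8% ± 10.01 of *Zeb2* in WT samples and 35.3% ± 13.2 in recent KO samples (SD, n = 5 each), so that protein-coding transcripts made up only 40.2% ± 18.3 and 43.1% ± 12.8 of the *Zeb2* level. For *Cbfb*, *Etv6*, *Gfi1*, and *Id2*, protein-coding transcripts made up at least 93.3% in every sample. For *Gfi1b* they made up 89.5% ± 23.5 in WT samples (SD, n = 5), with 47.5% in WT replicate 3, and 100% in recent KO samples. The pairs *Cbfb-201* and *Cbfb-202*, and *Etv6-201* and *Etv6-202*, shared most of their gene between them, and none of the 4 shares passed the test.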

How the data were processed

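RNA of CD45.2+ GMPs was sequenced by the authors from 5 WT and 5 *Mpc2* recent KO samples, grouped by the genotype in the labels, with SMARTseq V4 libraries and paired-end reads on an Illumina NovaSeq. Per the submitters' processing notes, transcripts were quantified with Salmon 1.5.1. The authors deposited, per sample, estimated counts of reads per Gencode M27 transcript, which need not be whole, and TPM, which is scaled to transcript length and library. A deposited table of the authors' own DESeq2 comparison, with mean signal, log2 fold change and its error, a test score, p-value, and adjusted p-value per gene, was not used. The kit amplifies cDNA without molecular identifiers, so reads are not independent molecules, and floors cover counting error only.

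The reference used here, GENCODE M21 on GRCm38, is older than the authors' M27 on GRCm39. Transcripts were matched by identifier (137161 of 140789, 97.4%), the unmatched ones, with 0.348% to 0.390% of reads, were left out, and every position is from M21 on GRCm38. Estimated counts were summed per gene and rounded. Genes kept by filterByExpr (minimum count 10) were tested with edgeR 4.0.16 (quasi-likelihood, TMM-normalized, limma 3.58.1, R 4.3.3), with Benjamini-Hochberg adjustment over all 12381 genes at 0.05. Levels are TMM-normalized CPM, and levels between genes are TPM. Ratios of 2 factors were compared in log2 TPM by exact two-sided permutation tests, adjusted over 5 ratios. Transcript shares of 10% to 90% were compared with limma on log2((TPM + 0.1)/(other TPM of the gene + 0.1)), adjusted over all 18229 such transcripts. The edgeR step was tested on simulated data, in which 4.62% of its calls were false. Tables were made in Python 3.11.15 (scipy 1.17.1, pandas 2.3.3, numpy 2.4.6).

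The factors and gene lists were chosen with earlier results of these data known. All factors are named, and of the lists those genes called, the 2 with the smallest p, and in marker lists the 2 with the highest mean CPM. *Mpc2*, transcripts of factors with a share of 10% to 90%, and called genes starting within 5 Mb of a factor are named as well. *Gata1*, *Klf1*, *Pax5*, *Prtn3*, *Ctsg*, *Kit*, *Cd34*, *Cd27*, *Bcl2*, *Cdk6*, *Myc*, and *Gata2* were named after their values were seen. The alternatives tried were scaling by library size, by upper quartile, or by RLE, no filter or a minimum mean count of 50, a length offset, robust dispersions, DESeq2 1.42.0, limma on log2(TPM + 1) or log2(TPM + 0.1), the replicate number as a block, and leaving out each sample. For ratios CPM replaced TPM, and for shares a pseudocount of 1 and limits of 5% to 95% were tried. No 2 samples of a group held identical values, and the chi-square per gene between them was 6.80 to 46.0, above sampling noise. The labels call the samples biological replicates and do not say whether they were separate experiments. The p-values set group differences against the spread between these samples only. That spread is between single mice in WT and between pools of a pair of mice in recent KO, and the fit did not model this.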

Additional observations from a re-analysis of the deposited data

Results flagged for a closer look

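In groups of 5, a value was singled out where its gap to the nearest other sample took up more of the range than Dixon's 95% limit allows. Of 70 groups examined, 3 held such a value, and chance alone gives about 1 in 20 groups.

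The *Gfi1* to *Gfi1b* ratio of recent KO replicate 1 was 19.1, where the other recent KO samples lay between 6.55 and 9.89. This sample had the lowest *Gfi1b* level of its group, 2.53 CPM, and its erythroid and megakaryocyte marker sum was 35.4 CPM. *Runx1-202* took 8.49% of *Runx1* in recent KO replicate 1, below the narrow range of 9.37% to 9.69% in the other 4, and inside the WT range. *Gfi1-202* took 36.5% of *Gfi1* in WT replicate 2, where the other WT samples had 0 to 6.51e-06%, and the same transcript took 72.1% and 41.5% in recent KO replicates 2 and 5.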

How the results depend on the processing

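None of the 10 factors was called when any single sample was left out (range 0 to 0), and 1, *Gfi1b*, was called with no filter (log2 fold change 1.23) and with DESeq2 (1.24), with adjusted p-values of 0.00701 to 0.501 over all other settings. Directions were kept in all settings for *Spi1*, *Myb*, *Gfi1*, *Gfi1b*, *Zeb2*, *Cbfb*, and *Id2*, and for *Klf4* wherever it had enough reads to be tested, which was not so with a mean count of at least 50 or with limma on TPM. *Etv6* turned to 0.0102 with library size scaling alone, which shifted the median gene by 0.07 on the log2 scale, and *Runx1* turned to 0.0178 and 0.02002 with limma on TPM at a pseudocount of 1 and 0.1. Of the 10, 6 were at an unadjusted p under 0.05, against 3 to 7 without 1 sample, the 3 without WT replicate 2, and 5 with the block. The causes were not tested.

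Over all genes, 41 calls became 206 with no filter, 156 with DESeq2, 25 and 24 with limma at a TPM pseudocount of 1 and 0.1, and 20 with the replicate block, and 25 to 91 when a sample was left out, the 91 without recent KO replicate 2 and the 25 without recent KO replicate 3 or 4. With library size scaling 56.5% of 46 calls were higher, against 15 of 41. Of the genes in the lists, 3 calls became 20 with no filter, 10 with DESeq2, 1 with the length offset and with limma on either log2 TPM, 0 with the block, and 0 to 4 without 1 sample, the 0 without WT replicate 2 or 3. In the lists other than those of cell markers, 0 calls became 6 with no filter, 4 with DESeq2, and 0 to 1 without 1 sample. The 4 with DESeq2 were *Fcgr3*, *Mpo*, *Cx3cr1*, and *Spic*, and all but *Spic* are in a cell marker list too.

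The difference between groups in the mean log2 ratio of *Spi1* to *Gfi1* was close to 0 and changed sign, to -0.0295 with CPM and over -0.0455 to 0.0625 without 1 sample. The *Runx1* to *Cbfb* difference was -0.30 with CPM and passed (exact permutation, adjusted p = 0.0397), against adjusted p-values up to 0.476 without 1 sample. Transcript shares gave 7 calls with a pseudocount of 1, 2 with the block, and 4 to 9 without 1 sample, none of them in a factor.

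Replicate numbers are shared by the groups but did not pair the samples: deviations of same-numbered samples correlated at -0.177 to 0.0576, and 0 of 5 WT samples correlated best with its own number. With the replicate number as a block, 0 of the 10 factors were called. *Klf4* with 4 to 29 reads and *Gfi1b* with 11 to 127 are the values that depth limits most.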
